A study of Mus musculus with 8 samples.

Results

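Type I interferon-stimulated genes were followed in bone marrow-derived macrophages (BMDMs) given sphingosine d18:1, written So(d18:1), a long-chain sphingoid base. The group was a given list of 43 genes, matched by GENCODE symbol among the 55357 genes of the deposited table. It holds antiviral effectors, nucleic acid sensors and ISGF3 factors and leaves out the GBP and IRG GTPases. All 43 were found and passed the filter on low counts, as did 14514 genes in all. BMDMs were grown for 5 to 6 days in 10 ng/ml M-CSF, the macrophage growth factor, from femur and tibia marrow of wild-type C57BL/6J mice. One group of 4 libraries came from cells given 2 μM So(d18:1) for 6 h in methanol, and the other 4 libraries, called Control, came from cells given methanol alone over the same 6 h. The labels state no age or sex of the mice. Nor do they say whether the 4 libraries of a group came from separate mice or cultures. The p-values therefore measure only the spread between these libraries. The study describes its purchased wild-type mice as male and counts 4 biologically independent samples for this experiment, without naming separate mice. The labels mention no inflammatory agent, while the text of the study speaks of inflammatory stimulation without naming the agent for this experiment.

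Type I interferons bind the receptor chains IFNAR1 and IFNAR2. The kinases JAK1 and TYK2 on these chains then start a signal that ends in the ISGF3 complex, which holds STAT2 and IRF9. ISGF3 binds interferon-stimulated response elements (ISREs) near the starts of genes whose products block viral replication, and macrophages keep a basal level of many of these genes without infection. IRF1 and IRF7 are further transcription factors of the pathway, and the gene for IRF1 is known to be induced through GAS elements.

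Poly(A) RNA was sequenced, and the deposited counts summed to between 17748397 and 26088609 per library. Levels are given as CPM, counts scaled to one common library total with TMM, whose factors lay between 0.989 and 1.01. All 7 macrophage markers (Adgre1, Csf1r, Cd68, Itgam, Mertk, Lyz2 and Fcgr1) were well counted, and their sum was 30123 to 32413 CPM in Control and 26006 to 30868 CPM in So(d18:1) libraries. Lyz2, at 16779 to 22264 CPM, made up most of it. With So(d18:1), Mertk (log2 fold change -0.38, edgeR adjusted p = 6.2e-06) and Cd68 (-0.22, adjusted p = 0.00349) fell. Itgam rose (0.18, adjusted p = 0.0119), and Adgre1, Csf1r, Lyz2 and Fcgr1 did not pass the test. Markers of plasmacytoid dendritic cells, a known source of type I interferon, summed to 5.24 to 5.82 CPM in Control and 4.31 to 5.42 CPM in So(d18:1) libraries, with 2 of 6 at 1 CPM or more in Control. Neutrophil markers, 8 of 8 at 1 CPM or more in Control, summed to 1682 to 2325 CPM in Control and, below every Control library, 1325 to 1506 CPM in So(d18:1) libraries. The sums for B, T and NK, conventional dendritic, erythroid, mast and basophil cells and fibroblasts were each at most 7.55 CPM in any library, and none of the markers was at 0 in all 8 libraries. The part of these cells in the results that follow was not tested.

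Irf1, Ifitm3 and Oas3 were higher in So(d18:1) than in Control BMDMs at an adjusted p under 0.05 in edgeR's quasi-likelihood test with Benjamini-Hochberg adjustment over all tested genes, and no interferon-stimulated gene of the list was called lower. These 3 of 43 genes compare with 8.94% of all tested genes called in either direction, with 3.87% called higher and 5.07% called lower. At an unadjusted p under 0.05, 11 genes of the list were higher and 0 lower, against 23.4% of all tested genes in either direction, 11.4% higher and 11.9% lower. None of the 43 passed the study's thresholds of an unadjusted p under 0.05 with a change of at least 1.5-fold, which 3.89% of all tested genes did. The fitted log2 fold changes ran from -0.24 for Isg20 to 0.46 for Oas3. They were above 0 for 34 genes and below 0 for 9, where 50.9% of all tested genes were above 0. With upper quartile scaling in place of TMM, 29 were above 0 and 14 below. Their median was 0.12, against 0.0036 over all tested genes, and it was 0.055 without Control replicate 4 and 0.017 without So(d18:1) replicate 3. Without Control replicate 2 the test called 10 of the 43, all higher, beside 9.37% of all genes tested in that fit; Ifih1, Ddx58, Ifi27l2a, Parp9, Dtx3l, Herc6 and Samd9l were added. Bulk RNA cannot tell apart a change in RNA per cell from a change in the number of cells that express a gene.

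**Figure D1:**
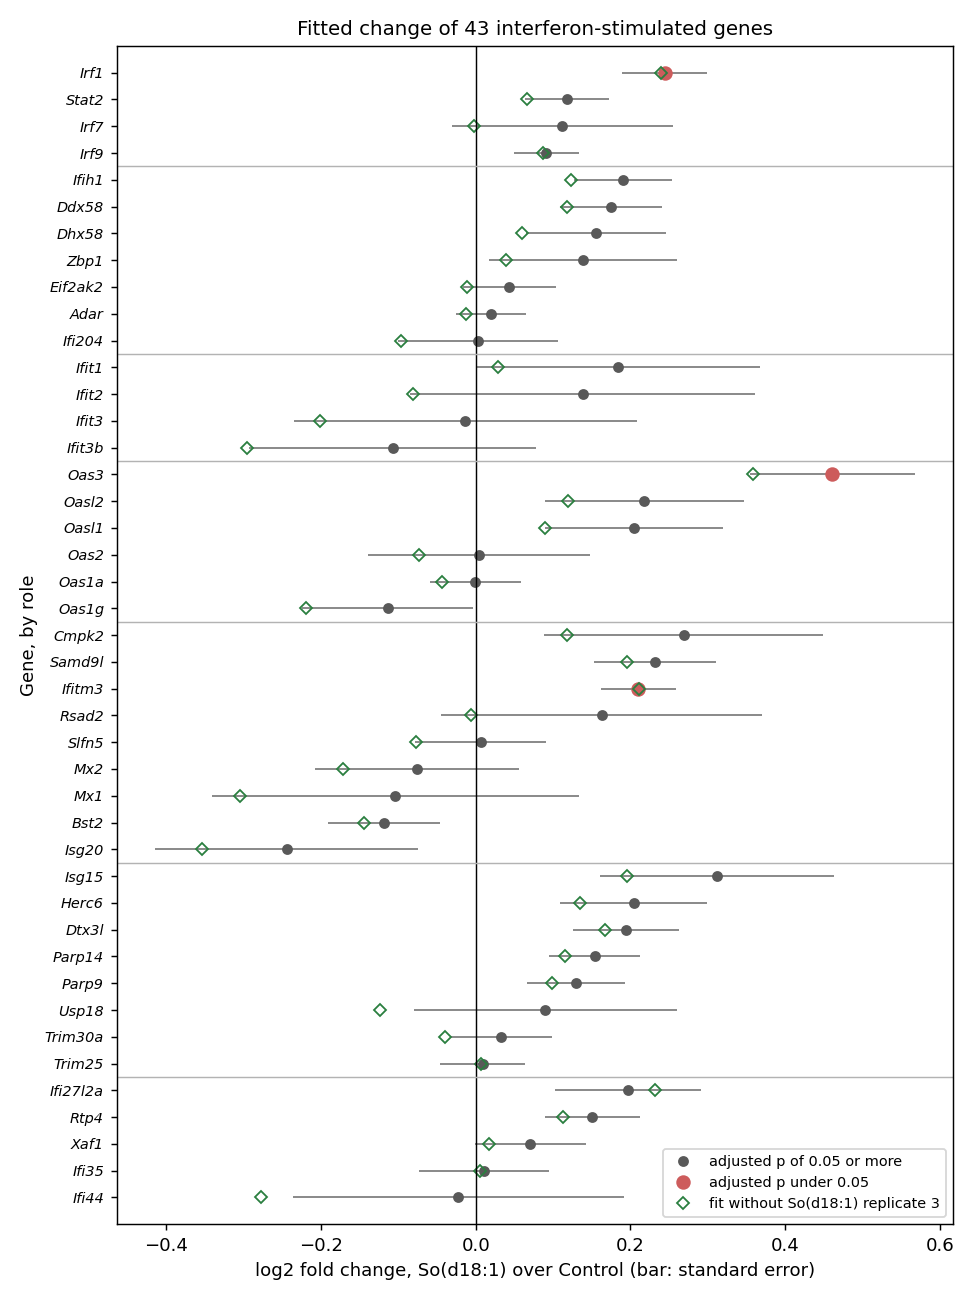
Log2 fold change of each of the 43 interferon-stimulated genes, So(d18:1) over Control (x axis), by role (y axis, roles parted by grey lines), with the standard error as a bar. Irf1, Ifitm3 and Oas3, in red, had an adjusted p under 0.05, and the green diamonds, from the fit without So(d18:1) replicate 3, lie left of the circles for most genes.

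The libraries of each group did not move together in these genes. The highest level of the 8 libraries was in So(d18:1) replicate 3 for 34 of the 43 genes (79.1%), where it was highest for 10.9% of all tested genes. Control replicate 4 had the lowest level for 32 of the 43 (74.4%), against 10.9% of all tested genes. The 9 genes for which another library was highest were Irf1, Irf9, Ifitm3, Ifi27l2a, Bst2, Trim25, Ifi35, Mx2 and Isg20. A second list of interferon-stimulated genes outside the 43, of which 53 were tested, had So(d18:1) replicate 3 as its highest library for 37 genes and Control replicate 4 as its lowest for 28.

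**Figure D2:**
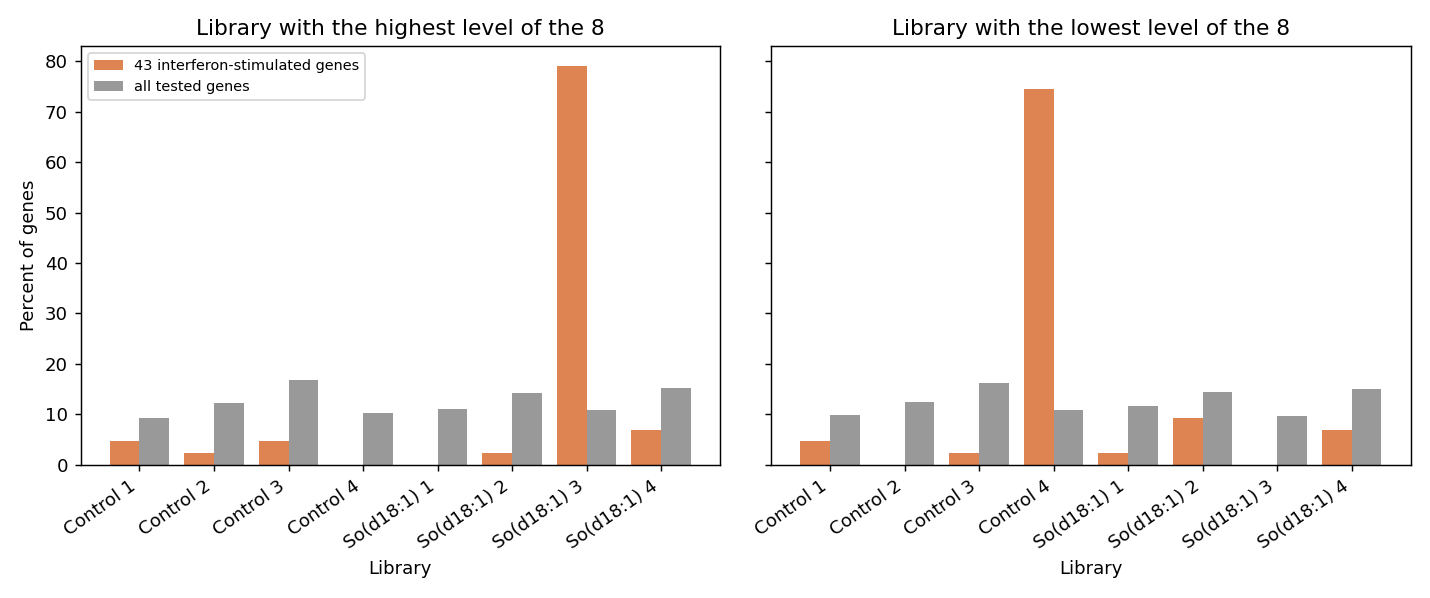
Percent of genes (y axis) for which each library (x axis) held the highest (left) or the lowest (right) level of the 8, for the 43 interferon-stimulated genes in orange and all tested genes in grey. So(d18:1) replicate 3 was highest for 79.1% of the list and Control replicate 4 lowest for 74.4%, while each was so for 10.9% of all tested genes.

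The gap of So(d18:1) replicate 3 to the mean of the other So(d18:1) libraries had a median of 0.31 in log2 CPM over the 43 genes, against 0.0053 over all tested genes. It was above 0 for 42 genes and widest for Ifi44 at 0.85, Ifit2 at 0.74 and Usp18 at 0.74, and Ifi27l2a at -0.13 was the exception. The gap of Control replicate 4 to the other Control libraries had a median of -0.24, against 0.0012 over all tested genes, and was below 0 for 42 genes, with Bst2 at 0.027 as the exception. Averaged over the 43 genes, log2 CPM was 6.11, 6.09, 6.12 and 5.84 in Control replicates 1 to 4 and 6.09, 6.04, 6.38 and 6.03 in So(d18:1) replicates 1 to 4. Apart from Control replicate 4 and So(d18:1) replicate 3, these averages were 6.09 to 6.12 in Control and 6.03 to 6.09 in So(d18:1) libraries. Each remaining So(d18:1) average lay below each remaining Control average. The libraries set aside here were picked after their values in these genes were seen, which by construction lowers the one group and raises the other. Single genes differed more, and the gap of Control replicate 3 to the other Control libraries ran from -0.21 to 0.53. The median SD of log2 CPM over the list was 0.162 in Control and 0.167 in So(d18:1) libraries, where that of all tested genes was 0.116 and 0.113. It was 0.0855 without Control replicate 4 and 0.0774 without So(d18:1) replicate 3, against 0.113 and 0.107 over all tested genes. These libraries were the extreme ones in most genes of the list, so a fall of its SD was set by construction. Over the 10331 tested genes in the level range of the list, the median SD with all 4 libraries was 0.0884 in Control and 0.0856 in So(d18:1).

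The library of So(d18:1) replicate 3 held 19147166 counts and Control replicate 4 held 24292703, both inside the range of the other libraries. The TMM factors were 1.00 for So(d18:1) replicate 3 and 0.999 for Control replicate 4, and with library size alone as the scaling So(d18:1) replicate 3 was highest for 35 genes and Control replicate 4 lowest for 32. Counts on identifiers without a symbol made up 0.325% of So(d18:1) replicate 3, the highest of the 8 libraries (0.169% to 0.288% in the others). Plasmacytoid dendritic cell markers summed to 5.42 CPM in So(d18:1) replicate 3 and 5.24 CPM in Control replicate 4, and neutrophil markers to 1387 and 2079 CPM. The part of these measures in the library pattern was not tested.

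**Figure D3:**
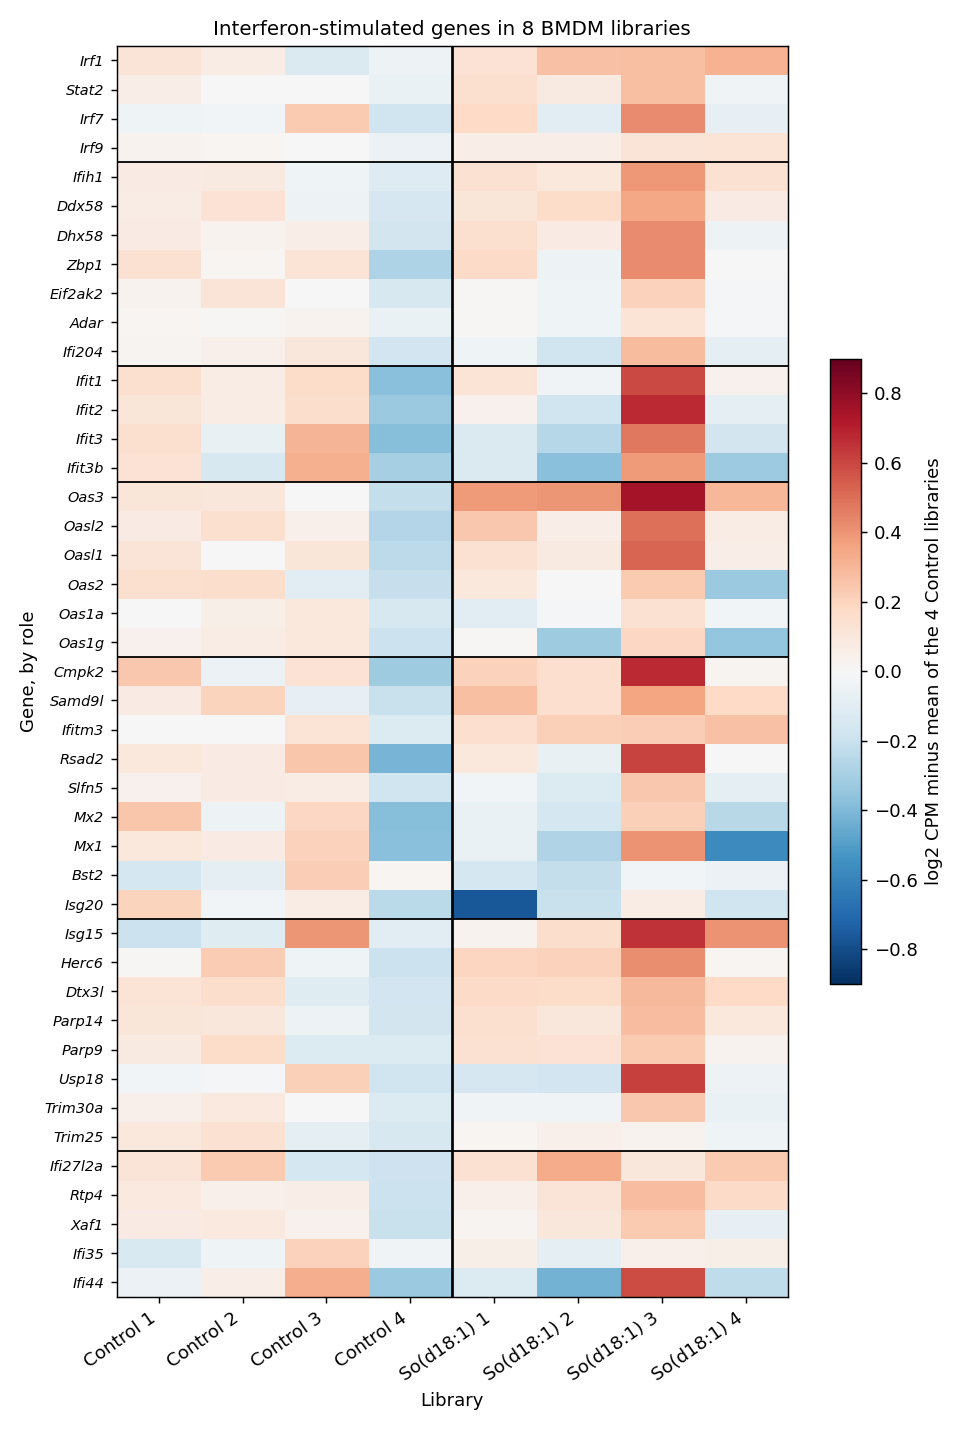
Log2 CPM of each interferon-stimulated gene (rows, by role) in each library (columns), as the difference from the mean of the 4 Control libraries, from blue (lower) to red (higher). The column of So(d18:1) replicate 3 is red in almost every row and that of Control replicate 4 blue in most. Irf1, Oas3 and Ifitm3 lie above the Control mean in all 4 So(d18:1) columns. So do other rows, among them Irf9, Ifih1, Dtx3l, Samd9l and Parp14, which were not called.

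Without So(d18:1) replicate 3 the median log2 fold change of the list was 0.017, with 24 genes above 0 and 19 below. Without Control replicate 4 it was 0.055, and with any other single library left out it lay between 0.12 and 0.16. Leaving out both libraries gave -0.041, with 19 genes above 0 and 24 below, although by construction this removes the library highest in the list from one group and the library lowest in it from the other. Irf1, Oas3 and Ifitm3 were each called without So(d18:1) replicate 3 and also without Control replicate 4, but without both at once Oas3 alone of the 3 was.

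**Figure D4:**
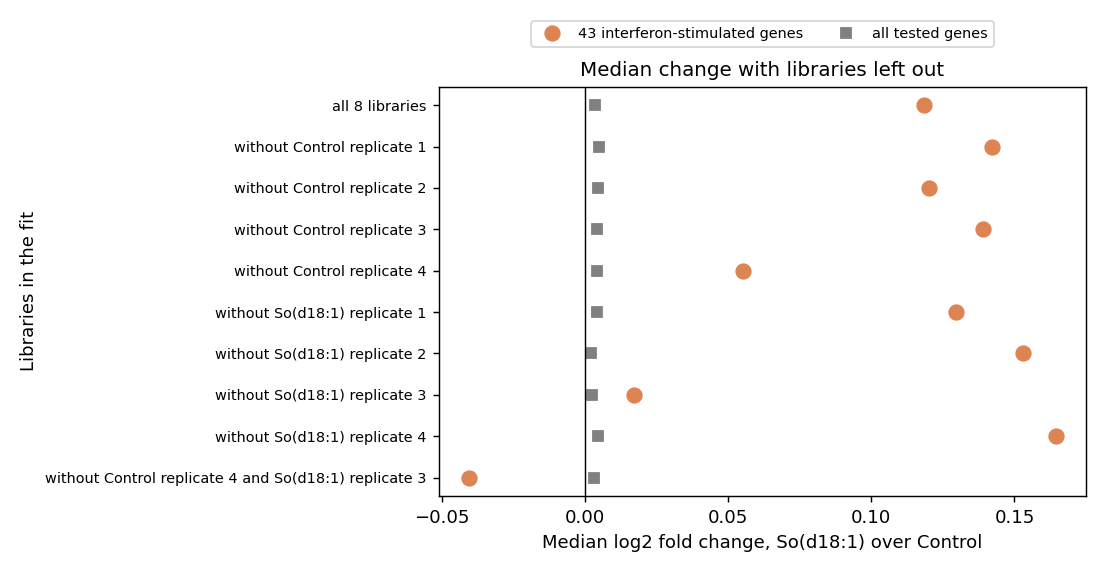
Median log2 fold change, So(d18:1) over Control (x axis), of the 43 interferon-stimulated genes (orange circles) and of all tested genes (grey squares), by the libraries in the fit (y axis). The orange circle moves from 0.12 with all 8 libraries to 0.017 without So(d18:1) replicate 3 and to -0.041 without that library and Control replicate 4, while the grey squares stay near 0.

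The core of an ISRE, GAAA followed by any 2 bases and GAAA again, was searched on both strands of the RefSeq promoter windows of GRCm38.p6, which run from 250 bases before to 50 bases after each gene start. Windows were given for 32 of the 43 genes, and 16 of these 32 genes held the core at least once, against 3.99% of all 27025 genes with a window. The GAS core TTCNNNGAA, which reads the same on both strands, was in 9 of the 32 (28.1%), against 9.55% of all genes. The 4 members with the core and the smallest p-values are shown, in capitals where the letters match, because ISGF3 and IRF factors bind such sites. Oas3, on chr5:120777660-120777779 (minus strand), holds it before its start, and the 30-base stretches of the other 3 lie at or just after the start, on chr7:141010715-141010744 (Ifitm3), chr2:62646206-62646235 (Ifih1) and chr4:40239804-40239833 (Ddx58), all 3 on the minus strand and written 5′ to 3′.
Oas3: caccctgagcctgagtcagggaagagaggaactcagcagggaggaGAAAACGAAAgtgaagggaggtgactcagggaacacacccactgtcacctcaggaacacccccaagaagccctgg
Ifitm3: agGAAAAGGAAActtctgaGAAACCGAAAc
Ifih1: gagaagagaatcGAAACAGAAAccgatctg
Ddx58: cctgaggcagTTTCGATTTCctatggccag

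Ifitm3 holds the core 2 times in its stretch, and Ddx58 holds it on the strand opposite to the gene. Irf1, chosen for display after its values were seen, had no ISRE core in its 2 windows and held a GAS core before its start, in capitals here, on chr11:53769894-53770013 (plus strand).
Irf1: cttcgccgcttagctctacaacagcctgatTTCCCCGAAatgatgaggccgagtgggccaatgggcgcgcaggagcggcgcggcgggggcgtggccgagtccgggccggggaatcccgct

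A match of letters is a description of the sequence and not a site of binding. In Ifitm3 and Bst2 an ISRE core and a GAS core share bases. Of the 16 genes with the ISRE core, 11 had a log2 fold change above 0 and 5 below.

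Among the transcription factors, Irf1 rose with So(d18:1), and the ISGF3 subunits Stat2 and Irf9 did not pass the adjustment. Irf1 (ENSMUSG00000018899), which encodes an activator of interferon-induced genes, spans chromosome 11 from 53770014 to 53778374 in GRCm38. It was counted at 102, 98.8, 86.1 and 91.3 CPM in Control replicates 1 to 4 and at 103, 113, 114 and 117 CPM in So(d18:1) replicates 1 to 4. Every So(d18:1) library lay above every Control library. The means were 94.7 ± 7.35 and 112 ± 6.04 CPM (SD, n = 4 each), and the log2 fold change was 0.24 (standard error, SE, of 0.0550, with an adjusted p of 0.00693 from edgeR). An exon of Irf1 overlaps Gm17334 on the other strand, and the strand setting of the counting is not given in the sources used here. Dropping any single library kept the call in all 8 fits (highest edgeR adjusted p = 0.0304), and its log2 fold change without both libraries that stood apart was 0.22 (adjusted p = 0.0717).

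Stat2, the STAT that is particular to type I and type III interferon signalling, had 141, 135, 135 and 129 CPM in the Control and 149, 143, 163 and 132 CPM in the So(d18:1) libraries. Replicate 3 was the highest So(d18:1) library for Stat2, and replicate 4 lay among the Control libraries. The log2 fold change of 0.12 (SE 0.0544) had an adjusted p of 0.195 in edgeR, and it was 0.067 without So(d18:1) replicate 3. Irf9, the DNA-binding subunit of ISGF3, had 113, 112, 111 and 107 CPM in Control and 116, 116, 120.2 and 121 CPM in So(d18:1) libraries. The groups did not overlap, but the log2 fold change of 0.091 (SE 0.0422) did not pass the adjustment (edgeR adjusted p = 0.196). An exon of Irf9 overlaps Rnf31 on the same strand. Irf7, the factor that amplifies interferon production, had 65.3, 65.9, 79.0 and 59.3 CPM in Control and 75.8, 62.5, 90.2 and 63.6 CPM in So(d18:1) libraries. Its groups overlapped, with replicate 3 the highest of each group, and the log2 fold change of 0.11 (SE 0.143, edgeR adjusted p = 0.707) became -0.0020 without So(d18:1) replicate 3. Irf7 overlaps the opposite-strand Phrf1.

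**Figure D5:**
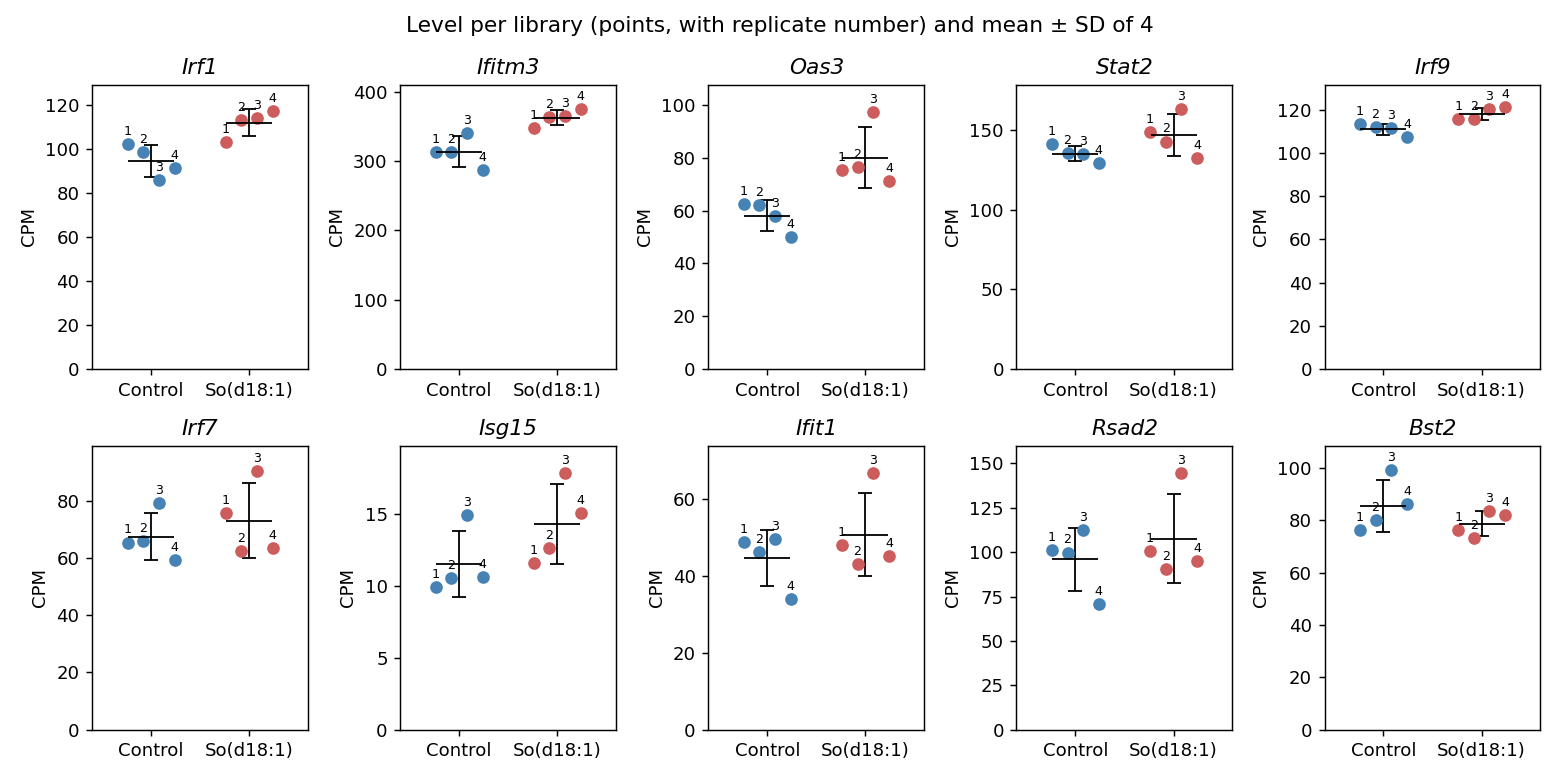
CPM (y axis, from 0) of 10 interferon-stimulated genes in each Control (blue) and So(d18:1) (red) library, each point with its replicate number, and mean ± SD of 4 as a black bar. In Irf1, Ifitm3, Oas3 and Irf9 the groups do not overlap, whereas in Stat2, Irf7, Isg15, Ifit1, Rsad2 and Bst2 they do, and So(d18:1) replicate 3 is the top point in Oas3, Stat2, Irf7, Isg15, Ifit1 and Rsad2.

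In 6 of the 43 genes every So(d18:1) library lay above every Control library, and in 0 every one lay below. These were Irf1, Irf9, Oas3, Ifih1, Dtx3l and Ifitm3, 6 of 43 genes where 7.14% of all tested genes had all So(d18:1) libraries above, 7.87% all below and 15.0% had groups without overlap in either direction. For groups that do not overlap, an exact two-sided permutation test of CPM can only give p = 0.0286, the smallest for 4 libraries against 4. That value for each of the 6 therefore repeats the lack of overlap and adds no support. Without both Control replicate 4 and So(d18:1) replicate 3, the groups did not overlap for 18 of the 43 genes, 6 higher and 12 lower, against 25.3% of all tested genes, and without Control replicate 2 for 9, all higher, against 20.6%. With all 8 libraries, for the other 37 genes this p lay between 0.0857 and 1.00.

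The 7 genes grouped as sensors of RNA or DNA, a group that here also holds the RNA-editing enzyme gene Adar, all had log2 fold changes above 0. These ran from 0.0034 to 0.19, and none passed the adjustment over all genes. In all 7, So(d18:1) replicate 3 was the highest library. Ifih1 encodes MDA5, a sensor of long double-stranded RNA, and had 77.7, 78.1, 71.7 and 68.1 CPM in Control and 81.1, 78.9, 96.5 and 80.9 CPM in So(d18:1) libraries. The groups of Ifih1 did not overlap, although Control replicate 2 lay next to So(d18:1) replicate 2, and the log2 fold change was 0.19 (SE 0.0633, edgeR adjusted p = 0.0708), or 0.12 without So(d18:1) replicate 3. Ddx58 encodes RIG-I, which detects RNA with a 5′ triphosphate, and had 116, 121, 107 and 99.4 CPM in Control and 119, 124, 140.4 and 116 CPM in So(d18:1) libraries. Its groups overlapped, and the log2 fold change was 0.18 (SE 0.0658, edgeR adjusted p = 0.117). When Control replicate 2 was left out, Ifih1 and Ddx58 were called (edgeR adjusted p = 0.0453 and 0.0395), and in none of the other 7 such fits. Dhx58, or LGP2, which modulates both RNA sensors, had means of 52.4 ± 3.86 (Control) and 58.4 ± 8.41 CPM (SD, n = 4 each; edgeR adjusted p = 0.342). Its log2 fold change of 0.16 was 0.059 without So(d18:1) replicate 3, and Dhx58 overlaps Dhx58os, an opposite-strand gene.

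Zbp1, the sensor of Z-form nucleic acid, ranged over 34.5 to 45.9 CPM in Control and 40.4 to 56.0 CPM in So(d18:1) libraries, and its log2 fold change was 0.14 (edgeR adjusted p = 0.556), against 0.039 without So(d18:1) replicate 3 and 0.055 without Control replicate 4. Eif2ak2, the double-stranded RNA kinase PKR, ranged over 117 to 140.2 and 126 to 149.6 CPM, and Adar, the RNA-editing enzyme whose long form is interferon-induced, over 121 to 128 and 123 to 137 CPM. Their log2 fold changes of 0.044 and 0.020 turned to -0.011 and -0.012 without So(d18:1) replicate 3. Eif2ak2 and Adar both overlap opposite-strand genes, and for Adar 14.4% of its 50-base words also lie elsewhere. Ifi204, a member of the PYHIN family of DNA-binding proteins, had 187, 190.1, 198 and 163 CPM in Control and 179.6, 162, 224 and 174 CPM in So(d18:1) libraries. So(d18:1) replicates 1 and 4 lay inside the Control range of Ifi204, replicate 2 just below it and replicate 3 above it. The log2 fold change was 0.0034 (SE 0.104, edgeR adjusted p = 0.990). The count of Ifi204 is uncertain, as 20.02% of its 50-base words are shared with relatives such as Ifi211 and Mndal.

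The 4 IFIT genes, among them Ifit1, whose product binds viral RNA that lacks host cap methylation, did not pass the test in either direction. Ifit1 had 48.7, 46.3, 49.6 and 34.0 CPM in Control and 48.0, 43.1, 66.8 and 45.2 CPM in So(d18:1) libraries. Ifit2 had 115, 112, 119 and 84.7 CPM in Control and 109.6, 94.6, 170.4 and 101 CPM in So(d18:1) libraries. In both, So(d18:1) replicate 3 was the highest of the 8 libraries and Control replicate 4 the lowest. The log2 fold changes were 0.18 (SE 0.183, edgeR adjusted p = 0.614) for Ifit1 and 0.14 (SE 0.223, edgeR adjusted p = 0.776) for Ifit2. A range of 2 standard errors on either side ran from -0.18 to 0.55 for Ifit1, so a rise or a small fall could not be told from no change at this precision. Without So(d18:1) replicate 3 the values were 0.029 and -0.081.

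Ifit3 had 66.7, 57.8, 74.7 and 46.2 CPM in Control and 55.1, 50.6, 83.9 and 53.9 CPM in So(d18:1) libraries, and its copy Ifit3b ranged over 9.74 to 15.0 and 9.23 to 15.7 CPM. They share much of their sequence, with 51.2% of the 50-base words of Ifit3 and 45.0% of those of Ifit3b found in another gene, so reads can be split between them. The sum of the pair was 79.9, 68.6, 89.7 and 55.9 CPM in Control and 66.1, 59.9, 99.6 and 63.4 CPM in So(d18:1) libraries, and its groups overlapped widely (73.5 ± 14.6 and 72.2 ± 18.4 CPM, SD, n = 4 each; exact permutation test, p = 0.943). Ifit3 was the only gene of the 43 that was called lower in any of the fits run, at -0.32 (edgeR adjusted p = 0.0338) without both Control replicate 4 and So(d18:1) replicate 3.

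The OAS genes encode enzymes that make 2′-5′ oligoadenylates and so activate RNase L, and relatives of them. Oas3 rose most of the 43 genes, while the other 5 did not pass the test. Oas3 (ENSMUSG00000032661), whose large product responds best to long double-stranded RNA, spans chromosome 5 from 120753098 to 120777661 in GRCm38. It had 62.6, 62.1, 58.0 and 49.98 CPM in Control and 75.4, 76.5, 97.3 and 71.4 CPM in So(d18:1) libraries. All 4 So(d18:1) libraries lay above all 4 Control libraries, with replicate 3 of So(d18:1) the highest and replicate 4 of Control the lowest. The means were 58.2 ± 5.83 and 80.1 ± 11.7 CPM (SD, n = 4 each), and the log2 fold change was 0.46 (SE 0.107, edgeR adjusted p = 0.0298). Of the 8 fits that dropped a single library, 6 kept the call, and the adjusted p reached 0.110, being lost without Control replicate 3 and without So(d18:1) replicate 2. Without both libraries that stood apart the log2 fold change of Oas3 was 0.29 (edgeR adjusted p = 0.00698).

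Oas2 had 172, 175, 146 and 135 CPM in Control and 167, 156, 184 and 124 CPM in So(d18:1) libraries. So(d18:1) replicates 3 and 4 were the highest and the lowest of all 8, and the log2 fold change was 0.0046 (SE 0.144, edgeR adjusted p = 0.990). Oas1a and Oas1g, neighbours and near copies, shared 57.6% and 45.7% of their 50-base words with other genes, among them each other and Oas1b. Their summed level was 90.5, 93.9, 96.2 and 81.1 CPM in Control and 85.3, 86.0, 99.9 and 85.2 CPM in So(d18:1) libraries. These groups overlapped too (90.4 ± 6.65 and 89.1 ± 7.19 CPM, SD, n = 4 each; exact permutation test, p = 0.771). Oasl1, which restrains Irf7 translation, ranged over 8.63 to 11.1 and 10.6 to 14.7 CPM, and Oasl2 over 125 to 165 and 156 to 212 CPM in Control and So(d18:1) libraries. Their log2 fold changes were 0.20 and 0.22 (edgeR adjusted p = 0.299 and 0.374), or 0.089 and 0.12 without So(d18:1) replicate 3. Oasl1 overlaps the opposite-strand Gm13822. The difference in response between Oas3 and the other OAS genes was not tested.

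Among the proteins that act on viruses directly, Ifitm3 rose and the other 8 genes did not pass the test. Ifitm3 (ENSMUSG00000025492), a membrane protein that hinders fusion of entering viruses, spans chromosome 7 from 141009586 to 141010770 in GRCm38. Its level was 313, 313, 341 and 287 CPM in Control and 348, 363, 364 and 375 CPM in So(d18:1) libraries. The lowest So(d18:1) library, replicate 1, lay just above the highest Control library, replicate 3. The means were 313 ± 22.0 and 362 ± 11.2 CPM (SD, n = 4 each), and the log2 fold change was 0.21 (SE 0.0485, edgeR adjusted p = 0.00841). All 8 fits that dropped a single library kept the call, at an adjusted p of at most 0.0414, and the log2 fold change was 0.17 without both Control replicate 4 and So(d18:1) replicate 3 (adjusted p = 0.0824). Of its 50-base words 10.0% occur in other genes, among them Ifitm2 and Gm7676.

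Rsad2 encodes viperin, which makes a chain-terminating nucleotide, and Cmpk2, a nucleotide kinase gene, is its neighbour on chromosome 12. Rsad2 had 101, 99.8, 113 and 70.9 CPM in Control and 101, 90.4, 145 and 95.0 CPM in So(d18:1) libraries. Cmpk2 had 46.5, 37.9, 43.1 and 31.4 CPM in Control and 45.4, 43.7, 62.7 and 40.0 CPM in So(d18:1) libraries. For both genes So(d18:1) replicate 3 lay far above the rest and Control replicate 4 below them. The log2 fold changes were 0.16 (SE 0.207, edgeR adjusted p = 0.708) and 0.27 (SE 0.180, edgeR adjusted p = 0.444), and without So(d18:1) replicate 3 they were -0.0065 and 0.12.

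Mx1, whose product is known to be non-functional in C57BL/6 mice, had 70.2, 69.1, 75.8 and 50.7 CPM in Control and 63.2, 54.3, 86.9 and 44.2 CPM in So(d18:1) libraries. So(d18:1) held both the highest and the lowest library, and the log2 fold change of -0.10 had a standard error of 0.237 (edgeR adjusted p = 0.851). Mx2 ranged over 10.4 to 16.2 and 11.4 to 15.8 CPM, with a log2 fold change of -0.076 (edgeR adjusted p = 0.788). Bst2, or tetherin, which holds budding virions at the cell surface, had 76.3, 80.0, 99.2 and 86.2 CPM in Control and 76.1, 73.2, 83.6 and 81.9 CPM in So(d18:1) libraries. Its highest library was Control replicate 3, and its log2 fold change was -0.12 (SE 0.0725, edgeR adjusted p = 0.359). Slfn5, of the schlafen family, had 385, 394, 393 and 331 CPM in Control and 369, 344, 444 and 353 CPM in So(d18:1) libraries, with a log2 fold change of 0.0065 (SE 0.0845, edgeR adjusted p = 0.977), and Slfn5 overlaps the opposite-strand Slfn5os. Samd9l, a restriction factor, had 119, 129.8, 108 and 98.0 CPM in Control and 136, 125, 144 and 128 CPM in So(d18:1) libraries. Only Control replicate 2 reached into the So(d18:1) range of Samd9l, and the log2 fold change of 0.23 (SE 0.0786) did not pass the test (edgeR adjusted p = 0.0950). The Wald test of DESeq2 called it, at an adjusted p of 0.0317, as did edgeR without Control replicate 2 (adjusted p = 0.00440). Isg20, an exonuclease, was the lowest by log2 fold change of the list at -0.24 (SE 0.170, edgeR adjusted p = 0.424), on 3.34 to 4.57 CPM in Control and 2.30 to 4.17 CPM in So(d18:1) libraries.

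The 8 genes of the ISG15 and ubiquitin system all had log2 fold changes above 0, and none passed the adjustment. Isg15, the ubiquitin-like modifier, had 9.91, 10.5, 15.0 and 10.6 CPM in Control and 11.6, 12.7, 17.9 and 15.1 CPM in So(d18:1) libraries. Control replicate 3 lay within the So(d18:1) range, and the log2 fold change was 0.31 (SE 0.151, edgeR adjusted p = 0.238). Isg15 was called without Control replicate 3 and in none of the other 7 such fits (lowest edgeR adjusted p = 0.0240), and its log2 fold change was 0.20 without So(d18:1) replicate 3. Usp18, the protease that removes ISG15 and damps receptor signalling, had 12.5, 12.5, 14.7 and 11.2 CPM in Control and 11.4, 11.2, 19.4 and 12.3 CPM in So(d18:1) libraries. Only So(d18:1) replicate 3 left the Control range upwards, and the log2 fold change of 0.090 (SE 0.170, edgeR adjusted p = 0.810) became -0.12 without it. Herc6, the mouse ligase for ISG15, ranged over 38.2 to 51.1 and 44.2 to 58.4 CPM, with a log2 fold change of 0.20 (edgeR adjusted p = 0.221, and 0.0310 without Control replicate 2), or 0.13 without So(d18:1) replicate 3. An exon of Usp18 overlaps Gm44148 on the other strand. An exon of Herc6 overlaps Gm45193 on the same strand, and 12.5% of the 50-base words of Herc6 occur in other genes.

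Dtx3l and Parp9, a ubiquitin ligase and its ADP-ribosyltransferase partner, lie side by side on chromosome 16 with overlapping exons on opposite strands. Dtx3l had 239.5, 245, 203 and 195 CPM in Control and 247, 246, 268 and 248 CPM in So(d18:1) libraries. Control replicate 2 lay just under So(d18:1) replicate 2, and the log2 fold change was 0.19 (SE 0.0687, edgeR adjusted p = 0.102). Dtx3l was called when Control replicate 1 or Control replicate 2 was left out (lowest edgeR adjusted p = 0.0150). Parp9 ranged over 91.3 to 112 and 102 to 117 CPM, with a log2 fold change of 0.13 (edgeR adjusted p = 0.233, and 0.0497 without Control replicate 2). Parp14, a large macrodomain protein, had 567, 563, 510.0 and 469 CPM in Control and 582, 565, 637 and 562 CPM in So(d18:1) libraries. In Parp14 Control replicates 1 and 2 reached into the So(d18:1) range, and the log2 fold change was 0.15 (SE 0.0585, edgeR adjusted p = 0.117). An exon of Parp14 overlaps Gm49730 on the same strand. Trim25, the ligase that aids RIG-I, had 538, 552, 473 and 455 CPM in Control and 509, 519, 514 and 488 CPM in So(d18:1) libraries. Trim30a had 247, 254, 238 and 219.9 CPM in Control and 234, 234, 283 and 229.8 CPM in So(d18:1) libraries. The 2 TRIM genes were near a log2 fold change of 0, at 0.0091 (SE 0.0546, edgeR adjusted p = 0.946) and 0.033 (SE 0.0648, edgeR adjusted p = 0.813).

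Of the 5 other interferon-induced genes, 4 had log2 fold changes above 0 and none passed the test. Ifi27l2a, a small hydrophobic protein, had 72.4, 78.7, 59.9 and 58.7 CPM in Control and 73.7, 84.3, 72.0 and 78.8 CPM in So(d18:1) libraries. Here So(d18:1) replicate 2 was the highest, Control replicates 1 and 2 lay within the So(d18:1) range, and the log2 fold change was 0.20 (SE 0.0944, edgeR adjusted p = 0.241, and 0.0241 without Control replicate 2). Rtp4 ranged over 80.1 to 97.8 and 94.5 to 111 CPM and Xaf1 over 41.7 to 50.9 and 45.4 to 56.4 CPM, with log2 fold changes of 0.15 and 0.070 (edgeR adjusted p = 0.145 and 0.603), or 0.091 and 0.0089 without Control replicate 4. Ifi35 ranged over 15.4 to 19.6 and 16.0 to 17.6 CPM, at a log2 fold change of 0.010 (edgeR adjusted p = 0.961), and one of its exons overlaps Gm11626 on the other strand. Ifi44 was counted at 6.54, 7.09, 8.52 and 5.37 CPM in Control and 6.22, 5.02, 10.3 and 5.78 CPM in So(d18:1) libraries, where replicate 3 of each group was the highest of its group. Its log2 fold change was -0.023 (SE 0.214, edgeR adjusted p = 0.968).

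Per kilobase of gene length, so that genes can be set beside each other, Ifitm3 was the most abundant of the list at 498 CPM per kb over the 8 libraries. Ifi27l2a followed at 156, Bst2 at 90.9, Trim25 at 87.9, Parp14 at 59.8, Slfn5 at 59.6, Trim30a at 59.0 and Ifi204 at 51.9 CPM per kb. The lowest were Mx2 at 3.72, Isg20 at 1.97 and Ifi44 at 1.12 CPM per kb. The inducible genes Rsad2, Ifit1 and Isg15 stood in the middle of the list at 23.5, 18.0 and 18.4 CPM per kb. Of the genes named in this ranking, only Ifitm3 had an edgeR adjusted p under 0.05 with all 8 libraries. Isg15, at a log2 fold change of 0.31, and Ifi27l2a, at 0.20, were above 0 without passing the test.

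Upstream in the pathway, the genes for interferons themselves were hardly counted. Of 14 interferon genes of types I, II and III, none passed the filter and 12 had 0 counts in all 8 libraries, which allows up to 3 counts in each library. Ifnb1, interferon beta, had 1, 0, 0 and 1 counts in Control and 0, 0, 2 and 0 counts in So(d18:1) libraries. Ifnk had 7, 7, 0 and 1 counts in Control and 0, 3, 2 and 1 counts in So(d18:1) libraries. A difference in interferon RNA was therefore not detectable at this depth, and these limits cover counting error only.

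The receptor chains and kinases of type I interferon were well counted, and none of them passed the test. Ifnar1 had 384, 383, 382 and 386 CPM in Control and 365, 337, 377 and 375 CPM in So(d18:1) libraries. Every So(d18:1) library of Ifnar1 lay below every Control library, but the log2 fold change of -0.079 (SE 0.0431) did not pass the adjustment (edgeR adjusted p = 0.285). Ifnar2 ranged over 194 to 201 and 189 to 199 CPM, Jak1 over 434 to 447 and 417 to 441 CPM and Tyk2 over 140.0 to 154 and 147 to 170.1 CPM, with log2 fold changes of -0.023, -0.047 and 0.079. None of the 3 passed the test (edgeR adjusted p = 0.789, 0.530 and 0.352).

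Over lists of further pathway genes, 1 of 6 receptor genes was called higher and 1 lower, while 0 of 7 negative regulators and 0 of 7 tested other IRF genes were called in either direction, beside 8.94% of all tested genes, 3.87% higher and 5.07% lower. Ifngr1, a chain of the type II interferon receptor, rose with a log2 fold change of 0.15 (SE 0.0464, edgeR adjusted p = 0.0461), a call kept when Control replicate 2 was dropped and lost when any of the other 7 libraries was (highest adjusted p = 0.166). Il10rb, shared by the receptors for interferon lambda and IL-10, fell with a log2 fold change of -0.18 (SE 0.0450, edgeR adjusted p = 0.0139), a call lost without Control replicate 3 and without So(d18:1) replicate 1 (highest adjusted p = 0.0520). Among 14 sensors and adaptors 0 rose and 1 fell, which was Tlr9, the endosomal receptor for CpG DNA, with means of 78.9 ± 6.06 and 60.6 ± 6.15 CPM (SD, n = 4 each) and a log2 fold change of -0.38 (SE 0.0701, edgeR adjusted p = 0.00209).

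Of 53 tested genes in the second list of interferon-stimulated genes, 6 rose and 0 fell, beside 3.87% and 5.07% of all tested genes, and the median log2 fold change was 0.079. Ifitm1 and Ifitm2, membrane proteins of the same family as Ifitm3, rose with it. Ifitm1 had 14.8, 15.2, 13.1 and 14.0 CPM in Control and 20.9, 20.2, 20.2 and 19.4 CPM in So(d18:1) libraries, and its log2 fold change was 0.50 (SE 0.0770, edgeR adjusted p = 2.2e-04). Ifitm2 had 173, 169.6, 186 and 171 CPM in Control and 203, 187, 202 and 213 CPM in So(d18:1) libraries, and its log2 fold change was 0.20 (SE 0.0470, edgeR adjusted p = 0.00866). For these 2 genes, as for Ifitm3, all So(d18:1) libraries lay above all Control libraries and So(d18:1) replicate 3 was not the highest. Pml, the organizer of PML nuclear bodies, rose with a log2 fold change of 0.27 (edgeR adjusted p = 0.00229), and Ly6e, a surface protein that blocks coronavirus entry, with 0.34 (edgeR adjusted p = 0.00848). Ube2l6, the conjugating enzyme for ISG15, rose with 0.24 (edgeR adjusted p = 0.0117) and Parp10 with 0.21 (edgeR adjusted p = 0.0239). When single libraries were dropped, Ifitm1, Pml and Ifitm2 were called in all 8 fits. Leaving out So(d18:1) replicate 4 ended the call of Ly6e (adjusted p = 0.0543), leaving out Control replicate 4 that of Ube2l6 (adjusted p = 0.0540), and leaving out Control replicate 2 or 4 or So(d18:1) replicate 1 or 3 that of Parp10 (highest adjusted p = 0.0868). Without both Control replicate 4 and So(d18:1) replicate 3, edgeR called Ifitm1 and Pml of the 6, at adjusted p of 0.00451 and 0.0332.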

How the data were processed

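BMDM RNA was measured by RNA-seq in 4 Control and 4 So(d18:1) libraries, grouped by their titles. The submitters' processing notes name Trim Galore 0.6.7, HISAT2 2.2.1, featureCounts 2.0.1 and the build mm10, and the authors deposited these raw counts for all libraries in one table with gene lengths. The strand setting is not given in the sources used here. Symbols and positions came from GENCODE M21 (GRCm38) and matched 52081 of 55357 identifiers. Counts were fitted in R 4.3.3 with edgeR 4.0.16 (filterByExpr, TMM, robust quasi-likelihood test, Benjamini-Hochberg adjustment over 14514 genes), with DESeq2 1.42.0 and limma 3.58.1 voom as alternatives, beside other scalings, other filters, a replicate block and each library left out. The script was tested on simulated data. CPM values use TMM library sizes, and log2 CPM a prior count of 2. Intervals are 2 standard errors either side.

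The biological coefficient of variation was 0.0657, and no 2 libraries of the same group were alike within sampling noise. Per-library levels were given for called members, the 4 transcription factors and the 8 members highest per kilobase, and for further members of each role that were chosen after their values were seen. The members, the lists and this rule were chosen with earlier results of these data known. One gene of the always-named pathway genes is not reported here. Shared sequence was counted in 50-base words of GENCODE transcripts, and promoter windows came from RefSeq (GRCm38.p6).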

Additional observations from a re-analysis of the deposited data

Results flagged for a closer look

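In 8 of 86 groups of 4 libraries, a single library lay far from the other 3 in log2 CPM. Its gap to the nearest took up more of the group's range than Dixon's 95% critical value allows. Chance gives about 1 in 20 where groups are independent. These groups share their libraries and are not independent, so that rate cannot be set against 8 of 86. The share over all tested genes is not given here. So(d18:1) replicate 3 was the highest library in 5 of the 8, namely Ifit3 (a share of 0.831 of the range), Usp18 (0.838), Ifih1 (0.864), Trim30a (0.908) and Dtx3l (0.924). Control replicate 4 was the lowest in Rtp4 (0.840) and Slfn5 (0.855). So(d18:1) replicate 2 was the lowest in Ifi35 (0.932), at 4.01 log2 CPM where the other 3 lay between 4.13 and 4.14.

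Dtx3l stood at 8.07 log2 CPM in So(d18:1) replicate 3 and near 7.95 in the others, and Ifih1 at 6.59 and between 6.30 and 6.34. Ifit3 stood at 6.39 and between 5.66 and 5.79. Of these 8 genes none was called with all 8 libraries.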

How the results depend on the processing

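The 3 calls were kept under RLE, upper quartile and library size scaling, with at least 10 counts in every library, in limma-voom and in DESeq2, whose adjusted p was missing for 846 genes. Without a filter on low counts 12 of the 43 were called, beside 6.14% of the 28076 genes tested, and 1212 genes passed the study's thresholds, against 564; the cause was not tested. Those added were Isg15, Ifih1, Ddx58, Ifi27l2a, Parp14, Dtx3l, Rtp4, Herc6 and Samd9l. Replicate numbers were shared by both groups, and a fit with them as a replicate block called 12 of the 43 and 1784 genes (12.3%), with Cmpk2 in place of Rtp4. Deviations of same-numbered libraries from their group means had correlations of -0.0035, 0.100, 0.033 and 0.0091. Control replicate 2 correlated best with its own number, while the other Control libraries did not. These correlations cannot show whether libraries with the same number share a mouse or a preparation, and the labels do not say.

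With one library left out, 2 to 10 of the 43 were called, at most without Control replicate 2 and at least without So(d18:1) replicate 2, and 815 to 1370 genes in all (5.49% to 9.37%). The median log2 fold change ran from 0.017 to 0.16, and 6 to 9 of the 43 did not overlap between groups, where 18.1% to 20.7% of all genes did not. Without both Control replicate 4 and So(d18:1) replicate 3, a choice made after seeing the data that leaves 3 libraries a group, 743 genes were called, the median was -0.041 and 18 of the 43 did not overlap, beside 25.3% of all genes.

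Some log2 fold changes near 0 changed sign. Oas1a was 0.0064 with library size alone, 0.0037 without a filter and 0.0011 with the replicate block. Oas2 was -0.0081 with upper quartile scaling, -0.0012 with at least 10 counts, -4.8e-05 with the block and -0.0046 in limma-voom. Ifi204 was -0.0090, -0.0027, -0.0019 and -0.0046 in the same 4. With upper quartile scaling Ifi35 was -0.0015, Trim25 -0.0036 and Slfn5 -0.0059.

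Signs also changed when Control replicate 4 and So(d18:1) replicate 3 were both left out or, for all but Ifit1, Xaf1 and Zbp1, when a single library was, with these lowest and highest values over the 9 such fits: Ifit1 -0.083 to 0.26, Ifit2 -0.18 to 0.23, Ifit3 -0.32 to 0.10, Ifit3b -0.39 to 0.011, Irf7 -0.060 to 0.20, Oas1a -0.091 to 0.033, Oas2 -0.14 to 0.11, Mx1 -0.42 to 0.035, Mx2 -0.29 to 0.0090, Rsad2 -0.13 to 0.25, Usp18 -0.18 to 0.17, Ifi35 -0.030 to 0.087, Ifi44 -0.38 to 0.10, Ifi204 -0.15 to 0.062, Trim30a -0.080 to 0.064, Trim25 -0.041 to 0.056, Xaf1 -0.047 to 0.12, Zbp1 -0.046 to 0.20, Eif2ak2 -0.058 to 0.085, Slfn5 -0.13 to 0.049 and Adar -0.033 to 0.040. None of these genes was called with all 8 libraries.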
